A study of Mus musculus with 8 samples.

Results

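The 10 genes described here encode the machinery of MHC class II antigen presentation, and they were chosen by symbol from the 23084 genes of the deposited RNA-seq table. H2-Aa, H2-Ab1 and H2-Eb1 are the classical chains, H2-DMa, H2-DMb1, H2-DMb2, H2-Oa and H2-Ob act in peptide loading, Cd74 is the invariant chain and Ciita is the transactivator. Each of the 10 symbols was found in 1 row of the table, so all 10 genes are accounted for. The RNA came from splenic myeloid cells of C57BL/6 mice 6 to 8 weeks old, sorted as CD11b+Ly6C+ (monocytic) or CD11b+Ly6G+ (granulocytic) cells. The paper does not state for the RNA-seq whether these mice bore tumours. The 8 samples form 4 groups of 2, which are wt CD11b+Ly6C+, wt CD11b+Ly6G+, LmnaMyeKO CD11b+Ly6C+ and LmnaMyeKO CD11b+Ly6G+ cells. LmnaMyeKO mice carry a floxed Lmna, the gene of lamin A/C, and a Cre that is expressed from the lysozyme gene Lyz2, so deletion is limited to cells that have used that promoter. The sort was taken from the sample titles, since the marker label reads CD11b+Ly6C+ for every sample.

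The value analysed is 1 mean per gene deposited by the authors. It was read from its column name (baseMean) as a pooled mean of counts normalized by size factors. The deposited values are named for a comparison of wt with knockout cells (HCWT vs HCKO). Which samples entered the mean is not stated in the sources used here. The mean may cover fewer than the 8 samples, and it carries no replicate error. For this reason the levels below describe the pooled cells, no difference between genotypes or between sorted subsets was tested, and no standard deviation can be given. The comparison of genotypes that the table also holds is the authors' own and was not used. The methods state the number of reads sequenced per sample, but the counts behind each mean are not in the value used, so no precision from counting can be given. Lmna had a mean normalized signal of 79.5, and a pooled mean cannot show whether it was lost in the knockout samples.

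MHC class II molecules are pairs of an alpha and a beta chain that show peptides from ingested proteins to CD4+ T cells. In the endoplasmic reticulum the pair binds the invariant chain, which blocks the groove and directs the complex to endosomes. There the remainder of the invariant chain is exchanged for a peptide with the help of H2-DM, and H2-DO restrains H2-DM. Ciita does not bind DNA itself but is recruited to the X and Y boxes of class II promoters by RFX, CREB and NF-Y, and it is known as the switch that sets class II expression. B cells, dendritic cells and macrophages are the usual sources of class II in the spleen, and monocytes carry little of it unless they are activated.

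The X and Y boxes were looked for in the promoter sequences, because they are the known link between class II genes and Ciita. RefSeq promoter windows (build GRCm38.p6, 250 bases before to 50 after a start site) were matched for 7 of the 10 genes, with 2 windows for H2-DMa, and H2-Ab1, Cd74 and Ciita had no window. The letters searched, on both strands, were ATTGG for the Y box, GCAAC for the first part of the X box (X1 core) and ATGATGC for the second part (X2 core). The letters of both X cores and the limit of 45 bases between X and Y were chosen after these windows had been read, so their presence in the windows is a description of what was picked. In 6 genes an X core was followed within that distance by a Y box on the same strand, and those stretches are shown here with the matches in capitals. Each stretch has 75 bases, is written 5′ to 3′ on the strand of the gene, and places the Y box at the same column so that the spacing can be read.
H2-Aa: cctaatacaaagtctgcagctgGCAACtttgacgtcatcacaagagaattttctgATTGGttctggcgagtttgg
H2-Eb1: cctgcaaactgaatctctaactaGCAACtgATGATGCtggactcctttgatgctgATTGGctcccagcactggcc
H2-DMb1: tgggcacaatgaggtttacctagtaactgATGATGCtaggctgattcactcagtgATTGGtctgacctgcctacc
H2-DMb2: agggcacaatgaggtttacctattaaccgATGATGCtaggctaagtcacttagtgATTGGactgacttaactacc
H2-Oa: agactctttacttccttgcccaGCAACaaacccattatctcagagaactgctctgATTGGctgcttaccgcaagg
H2-Ob: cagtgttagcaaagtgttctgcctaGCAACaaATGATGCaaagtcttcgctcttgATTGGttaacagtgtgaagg

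These stretches lie on chromosome 17 at chr17:34287852-34287926 on the minus strand for H2-Aa, and on the plus strand at chr17:34305753-34305827 for H2-Eb1, chr17:34153075-34153149 for H2-DMb1, chr17:34145104-34145178 for H2-DMb2, chr17:34092281-34092355 for H2-Oa and chr17:34238793-34238867 for H2-Ob. The Y box began 43 bases before the RefSeq start site in H2-Oa, 48 in H2-Aa, 57 in H2-Ob, 59 in H2-Eb1, 61 in H2-DMb1 and 90 in H2-DMb2. Between the X1 core and the Y box lay 28 bases in H2-Aa and in H2-Oa, 27 in H2-Eb1 and 25 in H2-Ob. Between the X2 core and the Y box lay 19 bases in H2-DMb1 and in H2-DMb2, 18 in H2-Eb1 and 16 in H2-Ob. The search itself limits these spacings, so they describe the stretches that were picked.

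**Figure D1:**
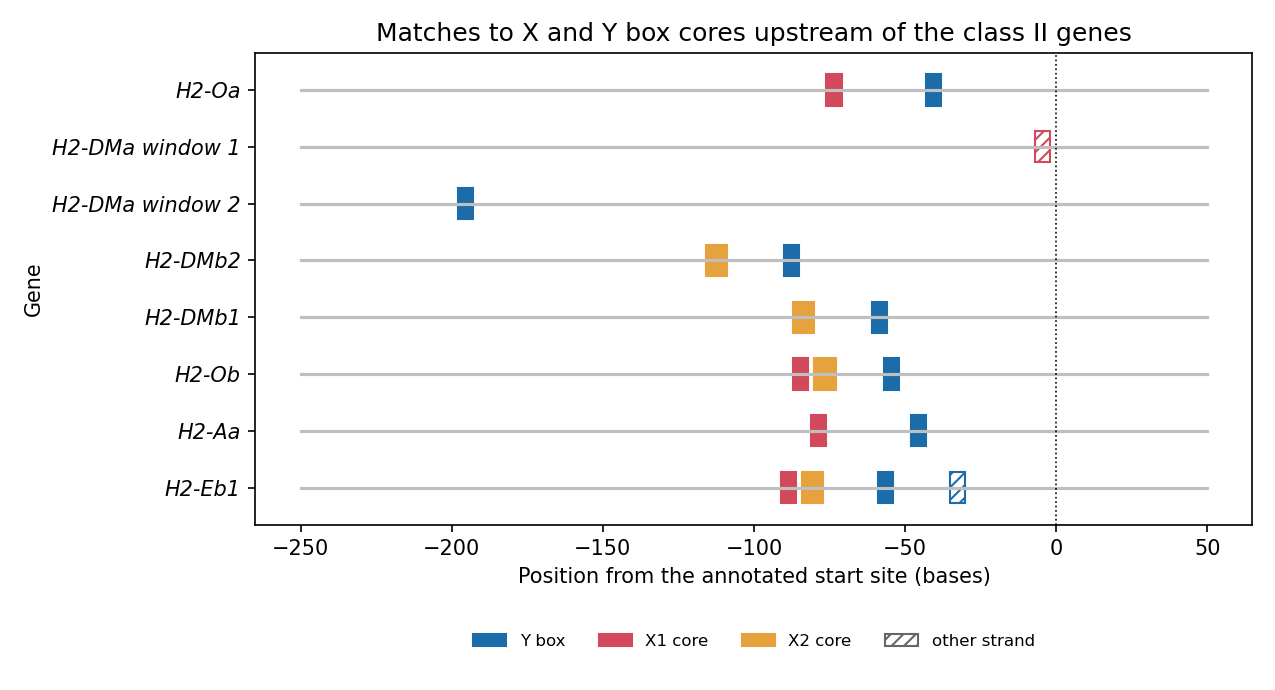
Positions of matches to the X1, X2 and Y box cores in the 8 RefSeq promoter windows of 7 class II genes, in bases from the annotated start site (dotted line), with matches on the other strand hatched. In 6 of the 8 windows an X core stands to the left of a Y box that begins 43 to 90 bases before the start site, and neither window of H2-DMa has that arrangement.

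The Y box and X1 letters are common, and the X2 letters and the combination are less so. Among all 32851 windows, 37.4% hold the Y box letters on either strand, 35.2% the X1 core and 2.46% the X2 core. An X core followed by the Y box as above was found in 1.67%. The X letters and the distance limit were chosen after the class II windows were read, so these shares cannot show enrichment in them. Among the genes with a window, only H2-DMa, the alpha chain of H2-DM, had no X core followed by a Y box. Both of its windows lie inside the annotated gene, which starts at chr17:34119541. The window of H2-DMb2 (chr17:34144999-34145298) likewise lies inside its annotated gene. The first window of H2-DMa (chr17:34122582-34122881) overlaps the start of Brd2 (34122634), a gene on the other strand. That window has a G and C content of 73.0%, 1 match to the X1 core on the other strand and no match to the Y box. The second window of H2-DMa (chr17:34125268-34125567) has a Y box match but no X core. That these letters were not found says nothing about whether the factors bind there.

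Levels of different genes were compared only after division by gene length, and "level" below means the mean normalized signal per kilobase of a gene's annotated exons, merged over all its transcripts (GENCODE M21, mm10). Over the 10 genes the level ran from 238 for Ciita to 27948 for Cd74, a range of 117-fold, with a median of 1107. All 10 lay above the median level of all genes, which was 18.8 over the 23004 genes with an annotated length. Fewer cells of a type and less RNA per cell cannot be told apart in such a mean. Together the 10 genes held 0.396% of the summed signal of the table. The order fell into separate tiers by role, with the invariant chain first, then the 3 classical chains, then the loading genes and last the transactivator.

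Merging all exons counts retained introns as length, which matters here because several of these genes have annotated transcripts of that kind. Levels were therefore also computed per kilobase of the longest annotated transcript, of the longest protein-coding transcript and of the coding sequence alone. Of the 45 pairs that the 10 genes form, 38 kept their order under all 4 definitions of length and 7 did not. The tiers were the same under all 4, since the lowest classical chain stood 3.26- to 4.58-fold above the highest loading gene. The 7 pairs whose order changed were the 3 pairs among the classical chains, H2-DMa with H2-DMb1, and H2-Ob with each of the 3 H2-DM genes.

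**Figure D2:**
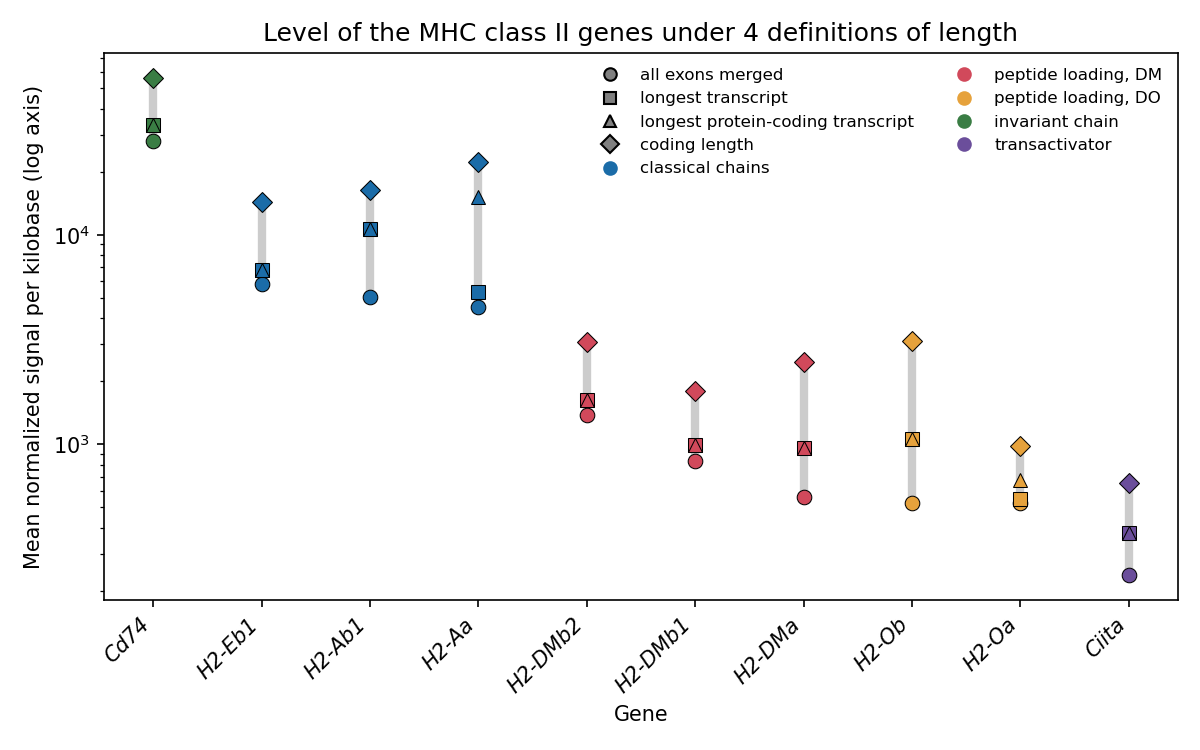
Mean normalized signal per kilobase (log axis) of the 10 class II genes, with 1 symbol for each of 4 definitions of gene length and colours for the roles. Cd74 is highest and Ciita lowest under each definition, and the 3 classical chains lie above the 5 peptide-loading genes throughout, while the symbols of neighbouring genes within a tier cross.

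Cd74 encodes the invariant chain, the chaperone of newly made class II pairs. Its mean normalized signal was 46924, the 42nd highest of the table, and its level was 27948, which 0.157% of genes exceeded. Its transcripts span chromosome 18 from 60803848 to 60812652 (plus strand, mm10), and its longest coding form has 9 exons. The level of Cd74 was 6.20-fold that of H2-Aa, 5.54-fold that of H2-Ab1 and 4.81-fold that of H2-Eb1. Set against the 3 classical chains summed it was 1.82-fold, and between 1.02- and 1.82-fold over the 4 definitions of length. Cd74 alone held 59.0% of the summed level of the 10 genes, or 46.3% by coding length.

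H2-Aa and H2-Ab1 encode the alpha and beta chains of I-A, and H2-Eb1 encodes the beta chain of I-E. The mean normalized signal was 17118 for H2-Aa, 12947 for H2-Ab1 and 11304 for H2-Eb1. Per kilobase of merged exons the order was the opposite, with levels of 5815 for H2-Eb1, 5042 for H2-Ab1 and 4507 for H2-Aa. Between 0.774% and 1.04% of genes had a higher level than these 3. The merged exons of H2-Aa measure 3798 bases, while its longest protein-coding transcript measures 1128 and its coding sequence 768. Per kilobase of that transcript H2-Aa came first, at 15176, before H2-Ab1 at 10682 and H2-Eb1 at 6773.

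Both chains of I-A are needed in equal number to form a pair, and their transcripts were compared directly. The ratio of H2-Aa to H2-Ab1 was 0.894 per kilobase of merged exons, 0.497 by longest transcript, 1.42 by longest protein-coding transcript and 1.37 by coding length. The ratio crosses 1 with the definition of length, so the data do not order the 2 chains. The same holds for H2-Eb1 and H2-Ab1, whose ratio ran from 0.634 to 1.15. The I-E alpha chain is encoded by H2-Ea, which is disrupted in the C57BL/6 strain and listed in the annotation as the pseudogene H2-Ea-ps, and no row of the table carries its identifier. H2-Eb2, a further beta chain gene next to H2-Eb1, had a level of 179, and H2-Eb1 stood 32.6-fold above it (20.3- to 37.9-fold over the 4 definitions).

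H2-DM removes the invariant chain fragment and edits the bound peptides. Its alpha chain gene H2-DMa had a mean normalized signal of 1932 and a level of 560. The beta chain is encoded by 2 neighbouring copies, with a signal of 1401 and a level of 833 for H2-DMb1 and a signal of 2412 and a level of 1381 for H2-DMb2. The ratio of H2-DMb2 to H2-DMb1 was 1.66, and it stayed between 1.63 and 1.72 over the 4 definitions of length. The 2 copies summed stood 3.95-fold above H2-DMa, or 1.97-fold by coding length. Between 3.58% and 8.69% of genes had a higher level than these 3.

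The split of reads between the 2 beta copies is uncertain. Their coding sequences, 783 bases each, are identical at 751 aligned bases (95.9%), while the beta chain genes H2-Ab1 and H2-Eb1 share 74.1%, and H2-Ab1 and H2-Ob 67.1%. Of all 25-base words in the protein-coding transcripts of H2-DMb1, 42.1% occur in transcripts of H2-DMb2, and in the other direction 33.4%. Counted against any other gene, the shares were 42.1% for H2-DMb1 and 41.0% for H2-DMb2. The classical chains share less, with 0.444% of the words of H2-Aa, 1.13% of those of H2-Ab1 and 2.12% of those of H2-Eb1 found in any other gene.

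H2-DO, the partner that restrains H2-DM and is best known from B cells, had the lowest levels among the loading genes per kilobase of merged exons, although H2-Ob was the highest of the 5 by coding length. The alpha chain gene H2-Oa had a mean normalized signal of 736 and a level of 523. The beta chain gene H2-Ob had a signal of 2833 and a level of 527, so that the 2 differed 1.01-fold by merged exons and 3.18-fold by coding length, with H2-Ob higher under all 4 definitions. The merged exons of H2-Ob measure 5380 bases and its coding sequence 909. Summed over chains, the H2-DM genes stood 2.64-fold above the H2-DO genes (1.79- to 2.64-fold over the definitions).

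Set against each other, the classical chains summed to a level of 15364 and the 5 loading genes to a level 4.02-fold lower. The share of the summed level of all 10 genes was 32.4% for the classical chains, 5.86% for the H2-DM genes, 2.22% for the H2-DO genes, 59.0% for Cd74 and 0.502% for Ciita. By coding length the classical chains held 43.7%, close to the 46.3% of Cd74. Over the 4 definitions H2-Ab1 stood 6.60- to 11.1-fold above H2-DMa and 5.22- to 10.1-fold above H2-Ob.

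Ciita had a mean normalized signal of 2270, above those of H2-DMa, H2-DMb1 and H2-Oa, but the longest coding sequence (3465 bases) and the longest merged exons (9535 bases) of the 10. Its level was accordingly the lowest, at 238, with 18.1% of genes higher. H2-Ab1, one of its targets, stood 21.2-fold above it, and 21.2- to 28.3-fold over the definitions. Ciita lies on chromosome 16 from 10480059 to 10528418 (plus strand) and its longest coding form has 19 exons. Nlrc5, the transactivator of MHC class I that is related to Ciita, had a level of 288, and the ratio of Ciita to Nlrc5 ran from 0.826 to 1.54, so that the definition of length decided which was higher.

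The other 8 genes lie together on chromosome 17, within 252 kb from the start of H2-Oa (34092340) to the end of H2-Ea-ps (34344645). H2-Oa comes first, then Brd2, H2-DMa, H2-DMb2 and H2-DMb1, followed by Psmb9, Tap1, Psmb8 and Tap2 of the class I pathway, and then by H2-Ob and the classical chains. The level stepped up from H2-Ob (527) to its neighbour H2-Ab1 (5042), remained high over H2-Aa and H2-Eb1, and stepped down at H2-Eb2 (179). The 6 other protein-coding genes of the interval had a median level of 949. The 3 antisense or long noncoding genes of the interval in the table had levels from 5.82 to 32.5.

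**Figure D3:**
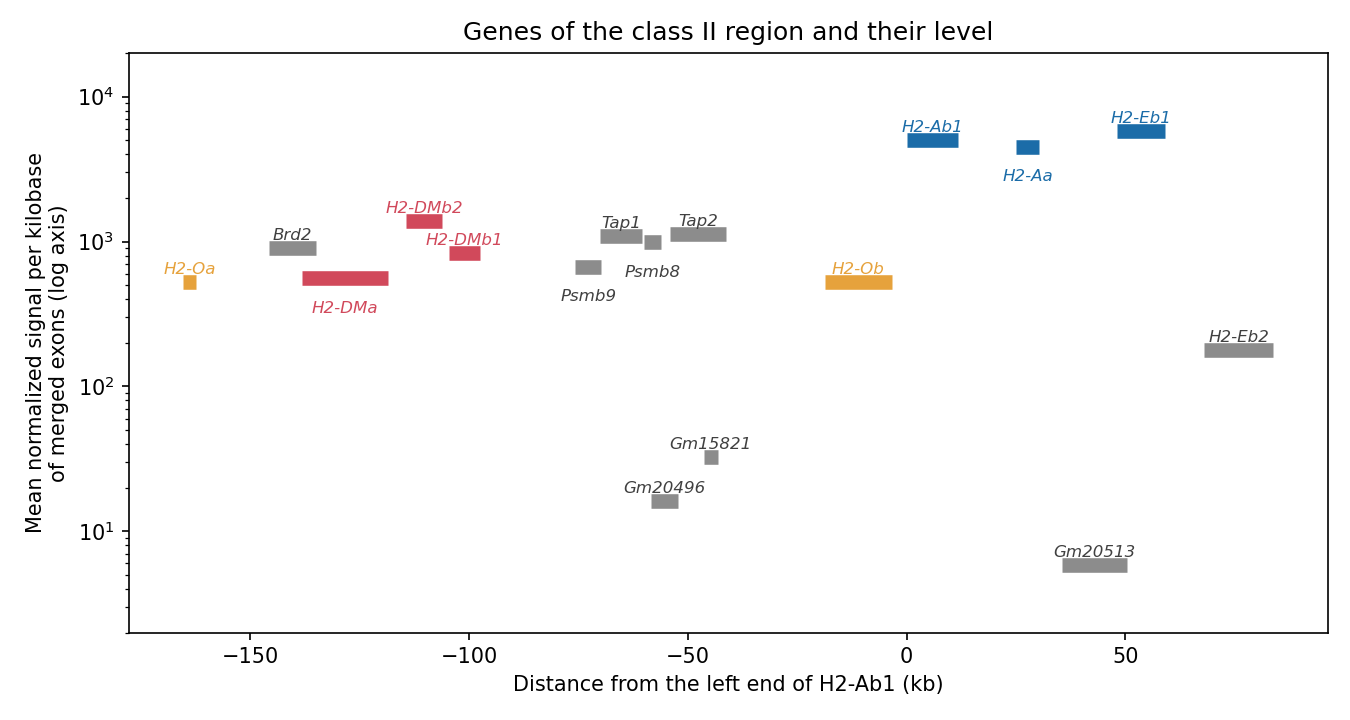
Genes of the class II region that are in the table, drawn to scale by distance from the left end of H2-Ab1 (kb) and at the height of their level (mean normalized signal per kilobase of merged exons, log axis), with genes outside the 10 in grey. The 3 classical chains form a block at 4507 to 5815, between H2-Ob at 527 and H2-Eb2 at 179, while the H2-DM, Tap and Psmb genes lie between 560 and 1381.

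Some of these genes overlap others. Brd2, with a mean normalized signal of 7079, overlaps H2-DMa on the other strand, and Dexi, with 171, overlaps Ciita. BC051537, an antisense gene over H2-Oa that shares 25.8% of the 25-base words of H2-Oa, had a mean of 5.70, and Gm20513, antisense to H2-Eb1, had 4.18. Whether counting used the strand is not stated, and without it reads of such partners cannot be told apart.

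Genes that act around the class II pathway were taken from a written list. Among the promoter factors, Rfx5, Rfxap, Rfxank, Nfya, Nfyb, Nfyc and Creb1 had levels from 92.3 (Rfxank) to 301 (Nfyc), and 2 of the 7 (Nfya, at 280, and Nfyc) exceeded Ciita. By coding length Nfyb and Creb1 also did, at 1205 and 2622 against 655 for Ciita. Among the 4 processing genes, Ctss, the protease that trims the invariant chain, had the highest level, at 7822. This was above all 3 classical chains per kilobase of merged exons, and at 10383 below all 3 by coding length. Lgmn and Ifi30, an endosomal protease and a thiol reductase, had levels of 2498 and 2250, and Ctsl 178. March1, the ubiquitin ligase that removes class II from the surface, had a level of 485, and Cd83, which opposes it, 689, while March8 had 79.9. Of the costimulatory genes, Cd86 had a level of 528, Cd40 of 87.5 and Cd80 of 62.3.

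Class I genes gave a scale for these levels. B2m, the light chain of class I, had a level of 44897, and Cd74 reached 0.622 of it (0.518 to 0.741 over the definitions). H2-D1 and H2-K1, class I heavy chains, had levels of 31827 and 10488. H2-Ab1 had 0.481 of the level of H2-K1 (0.481 to 0.650 over the definitions). Tapbp, Tap2 and Tap1, which load class I, had levels of 1914, 1127 and 1099, and those of both Tap genes lay within the range of the 3 H2-DM genes. By longest protein-coding transcript Tap1, at 2037, lay above that range, whose highest gene was H2-DMb2 at 1627.

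Because class II in the spleen can come from several cell types, marker lists were read in the same mean. Per kilobase of merged exons, all 7 neutrophil markers exceeded every classical chain, from 8337 for Ly6g to 1389950 for S100a9, with a median of 34070. By longest transcript Ly6g, at 8346, fell below H2-Ab1 at 10682. By longest protein-coding transcript it fell below H2-Ab1 and also below H2-Aa at 15176. By coding length Ly6g, at 19536, fell below H2-Aa at 22289. The 7 monocyte markers had a median level of 578 and were led by Ly6c2 at 5260, followed by Csf1r at 3838. By coding length Ly6c2 reached 36674, above all 3 classical chains and above Ly6g. The 8 B cell markers ranged from 80.4 for Ebf1 to 4065 for Cd79a with a median of 918, and 7 of the 8 exceeded Ciita. The 8 macrophage markers ranged from 603 for Spic to 9704 for C1qb with a median of 4212. The part of neutrophils and monocytes in the class II levels was not tested.

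Conventional dendritic cell markers were low. Their median level was 22.8, and the lowest, Zbtb46 and Xcr1, stood at 5.52 and 3.77. Clec9a, Clec10a and Cd209a stood at 26.7, 38.7 and 43.6, above the median of all genes (18.8) per kilobase of merged exons. By longest transcript and by longest protein-coding transcript they stood at 26.7, 48.0 and 46.5. These values lay above the all-gene median of 22.5 for the first length and below that of 89.0 for the second. By coding length they stood at 111, 121 and 96.6, below the median of 187. None of the 8 was at 0, and the highest was Itgax at 542, which other myeloid cells also express. The 4 plasmacytoid dendritic cell markers had a median of 33.1 and ranged up to 904 for Bst2, which many cell types express. The 6 T and NK cell markers had a median of 168 and the 5 erythroid and platelet markers a median of 101, with Nkg7 (519) and Hbb-bs (11172) highest. The part of B cells, macrophages and dendritic cells in the class II levels was not tested.

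**Figure D4:**
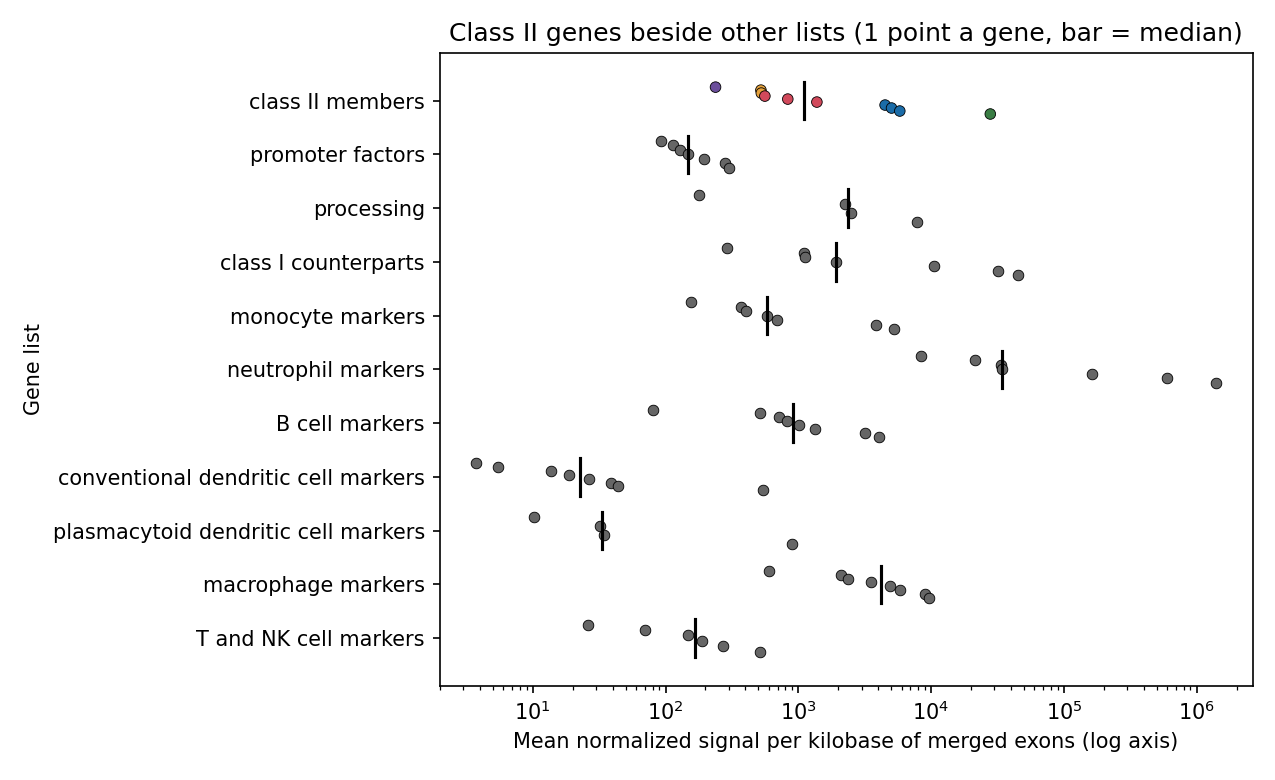
Level (mean normalized signal per kilobase of merged exons, log axis) of each class II gene, coloured by role as in the plot of lengths, beside genes of the pathway and marker lists, with 1 point a gene and a bar at each list's median. The class II median is 1107, near the B cell median of 918, below the macrophage median of 4212 and the neutrophil median of 34070, and above the conventional dendritic cell median of 22.8.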

How the data were processed

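RNA from 8 samples of sorted splenic myeloid cells was sequenced. The methods and the submitters' processing notes name Cutadapt 1.14, STAR 2.5.2b, RSEM 1.3.0, DESeq2 1.20.0, mm10 and GENCODE M12. The deposited signal per gene was read from its column name as the authors' mean of counts divided by size factors, not divided by length. The samples averaged are not named. The 6 other columns hold the authors' comparison of genotypes (fold changes, error, statistic and p-values) and were not used. Single-sample values were not analysed here, and the planned count test could not be run. Sequencing depth is given in the methods, but the counts behind each mean are unknown.

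Gene lengths came from GENCODE M21 (mm10) by identifier without version (23004 of 23084 genes; 0 of the 10 class II genes had the same version). March1 and March8, written as dates in the table, were matched by identifier. Shared 25-base words and coding identity were computed from the same transcripts (Biopython 1.88), and promoters were read from RefSeq (GRCm38.p6). Named genes are the 10 class II genes, the listed pathway genes, the most abundant marker of each list and Lmna. Csf1r, the lowest gene of a list, other named dendritic cell markers, neighbours and overlapping genes were added with their values in view. The 10 genes and the lists were chosen with earlier results of these data known. Length scaling was tested on simulated data, and exon merging and motif search on short made-up inputs with known answers (Python 3.11.15, pandas 2.3.3).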

Additional observations from a re-analysis of the deposited data

How the results depend on the processing

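No paired analysis was possible because only 1 pooled mean per gene was analysed. Therefore DESeq2, other normalizations, count filters, pseudocounts and the fits without each replicate were not run, and the stability of any level against single samples is unknown.

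A level was taken as moved where it changed by more than 1.5 times, since there is no replicate spread to set it against. Of 40 levels recomputed (10 genes under 4 alternatives), 21 stayed within that limit and 19 moved, all 19 upward because the alternative lengths are shorter. Of the 21, 10 came from summing the rows of a symbol, which could not change a level. By coding length all 10 moved, by longest transcript 4 and by longest protein-coding transcript 5. By coding length the levels were 56063 for Cd74, 22289 for H2-Aa, 16285 for H2-Ab1, 14273 for H2-Eb1, 3117 for H2-Ob, 3081 for H2-DMb2, 2467 for H2-DMa, 1789 for H2-DMb1, 981 for H2-Oa and 655 for Ciita. By longest transcript, H2-Ab1 moved to 10682, H2-Ob to 1061, H2-DMa to 963 and Ciita to 378, and the longest protein-coding transcript, an alternative chosen after seeing the data, gave these 4 the same values and H2-Aa 15176. Summing all rows of a symbol changed nothing, as each gene has 1 row. The share held by the classical chains (32.4%) stayed within the limit, at 36.9% by longest transcript, 45.6% by longest protein-coding transcript, 43.7% by coding length and 41.4% without division by length. Among only the 14286 genes with a mean signal of at least 10, the percentage of genes with a higher level rose by construction, to 0.252 for Cd74, 1.25 for H2-Eb1, 1.46 for H2-Ab1, 1.67 for H2-Aa, 5.76 for H2-DMb2, 9.62 for H2-DMb1, 14.0 for H2-DMa, 14.9 for H2-Ob, 15.02 for H2-Oa and 29.1 for Ciita.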
